A study of Mus musculus with 18 samples.

Results

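The RNA of 9 casein kinase genes was followed in the striatum of mice that carried the zQ175 Huntingtin knock-in allele, lacked 1 allele of the CK2α' gene, or both. The 9 genes were taken by symbol. They are Csnk2a1, Csnk2a2 and Csnk2b, which encode the CK2 subunits CK2α, CK2α' and CK2β, and Csnk1a1, Csnk1d, Csnk1e, Csnk1g1, Csnk1g2 and Csnk1g3, which encode the α, δ, ε and 3 γ forms of CK1. All 9 were found among the 55421 genes of the deposited count table, and all 9 passed the filter on low counts that left 20914 genes for testing. There were 5 WT mice, 5 zQ175 mice, 3 CK2α'(+/-) mice with 2 wild-type Htt alleles, and 5 zQ175:CK2α'(+/-) mice, all C57BL/6 and aged 12-14 months, with 1 striatal total RNA library each. zQ175 mice are heterozygous for a full-length mouse Htt gene whose first exon was replaced by a chimeric human and mouse exon with an expanded CAG repeat, expressed from the Htt locus itself. CK2α'(+/-) mice carry 1 disrupted Csnk2a2 allele in all cells from conception, and the exons removed are not given in the sources used here. The labels give no sex, litter or batch for a mouse, and the study describes unequal sex ratios among the genotypes.

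CK2 is a serine/threonine kinase that assembles as a tetramer of 2 catalytic subunits, CK2α or CK2α' in any combination, on a dimer of CK2β, which shapes substrate choice. CK2α is needed in nearly all cells, while CK2α' is prominent in brain and testis, and CK2 has been studied in Huntington's disease for its action on HSF1, the regulator of heat shock genes, and on α-synuclein. CK1 kinases share the historical name and an acidic substrate preference but act as monomers. CK1α primes β-catenin for destruction in Wnt signalling, CK1δ and CK1ε set the pace of the circadian clock by phosphorylating the PER proteins, and the CK1γ kinases are anchored at membranes, where they act on the Wnt receptor LRP6.

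Because CK2α and CK2α' are near twins, the counts can only be read gene by gene if the reads tell them apart, and the sequences show how far they do. Over the aligned coding bases of their longest coding transcripts, Csnk2a1 and Csnk2a2 were 76.3% identical and Csnk1d and Csnk1e 77.7%. The longest run of identical bases was 18 between Csnk2a1 and Csnk2a2 and 23 between Csnk1d and Csnk1e, less than 1 read of 50 bases. The window of 50 coding bases inside 1 exon where each pair is most alike is printed below, with capitals where the pair differs, from GENCODE M21 transcripts placed on GRCm38. The Csnk2a1 window lies at chr2:152260774-152260823 on the plus strand, the Csnk2a2 window at chr8:95461565-95461614 on the minus strand, the Csnk1d window at chr11:120973085-120973134 and the Csnk1e window at chr15:79426378-79426427, both on the minus strand.
Csnk2a1: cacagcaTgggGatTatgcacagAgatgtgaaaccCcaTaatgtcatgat
Csnk2a2: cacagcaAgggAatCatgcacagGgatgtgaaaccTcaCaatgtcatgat
Csnk1d: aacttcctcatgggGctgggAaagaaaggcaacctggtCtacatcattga
Csnk1e: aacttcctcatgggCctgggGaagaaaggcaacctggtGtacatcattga
Even at its most similar stretch, Csnk2a2 thus differed from Csnk2a1 at 6 of 50 bases, and Csnk1d from Csnk1e at 3 of 50.

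Every transcript of the 9 genes was also searched for windows of 50 bases that occur unchanged, on either strand, in a transcript of another gene. Csnk2a2, Csnk1a1 and Csnk1g2 had 0 such windows, and Csnk2a1 had the most. Gm10031, on chromosome 1 and annotated as protein coding, is nearly a copy of Csnk2a1. Of the 1124 windows of 50 coding bases in the longest coding transcript of Csnk2a1, 1074 (95.6%) occur unchanged in Gm10031, the printed window included, and over the whole transcript 2313 of 4157 windows (55.6%) do. Alignments of low mapping quality, which include reads that match several places, were discarded by the authors before counting. Gm10031 collected 178 to 405 counts per library, against 746 to 1519 for Csnk2a1, and how reads of the shared stretches were divided or lost is not known. The level of Csnk2a1 is therefore uncertain, as is every value that sets it against another gene. Gm10031 had 14.9 ± 2.74 CPM (SD, n = 5) in WT, 13.9 ± 1.14 (SD, n = 5) in zQ175, 14.6 ± 2.33 (SD, n = 3) in CK2α'(+/-) and 16.0 ± 2.1 (SD, n = 5) in zQ175:CK2α'(+/-). The annotated pseudogenes Csnk2a1-ps and Csnk2a1-ps1 held at most 2 counts in any library. For Csnk1g3, Gm14584 shares 403 windows of 50 bases and collected 42 to 98 counts. Csnk1g1 shares windows with 145 other genes, at most 22 with any of them, and they make up 70 of the 3038 windows (2.30%) of its most affected transcript. Exons of Gpank1 overlap 62 bases of Csnk2b on the opposite strand, those of Slc16a3 306 bases of Csnk1d and those of Gm16059 267 bases of Csnk1e. Whether the counting used strand is not given in the sources used here, and these overlaps cover at most 5.74% of the exon bases of the kinase concerned.

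Per unit of length, measured as TPM (counts divided by the merged exon length of all isoforms of a gene, scaled to the same total in each library), the regulatory subunit gene Csnk2b and Csnk1a1 led the 9 genes and Csnk2a2 stood last. Over the 18 mice the mean was 30.6 ± 4.55 TPM (SD) for Csnk2b, 28.9 ± 5.72 for Csnk1a1, 24.3 ± 3.75 for Csnk1g2, 18.1 ± 3.21 for Csnk1g3, 16.2 ± 2.87 for Csnk1e, 15.4 ± 2.55 for Csnk1d, 13.1 ± 2.90 for Csnk2a1, 5.18 ± 0.918 for Csnk1g1 and 4.10 ± 1.39 for Csnk2a2. On this scale Csnk2a1 was higher than Csnk1g1 in 18 of 18 mice, and Csnk1g2 higher than Csnk1g3 in 18 of 18. Neighbours higher up or in the middle changed places from mouse to mouse: Csnk2b exceeded Csnk1a1 in 13 of 18 mice, Csnk1g3 exceeded Csnk1e in 13 of 18, and Csnk1e exceeded Csnk1d in 13 of 18. The order depends on that length, which runs from 2067 bases for Csnk2b to 15621 for Csnk1g1. In CPM, with no length, Csnk1a1 came first at 199 ± 16.8 (SD, n = 18), Csnk2b eighth at 41.8 ± 3.47 and Csnk2a2 last at 26.2 ± 8.5, and Csnk2a1 was above Csnk1g1 in 17 of 18 mice. The place of Csnk2a1 also carries the uncertainty from Gm10031. At the bottom the order in TPM differed with genotype. In TPM, Csnk2a2 was the higher of the pair Csnk1g1 and Csnk2a2 in 6 of the 10 mice with 2 CK2α' alleles, and Csnk1g1 was the higher in 8 of the 8 mice with 1. In CPM there was no such switch, with Csnk1g1 at 46.1 or more and Csnk2a2 at 37.5 or less in every mouse.

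**Figure D1:**
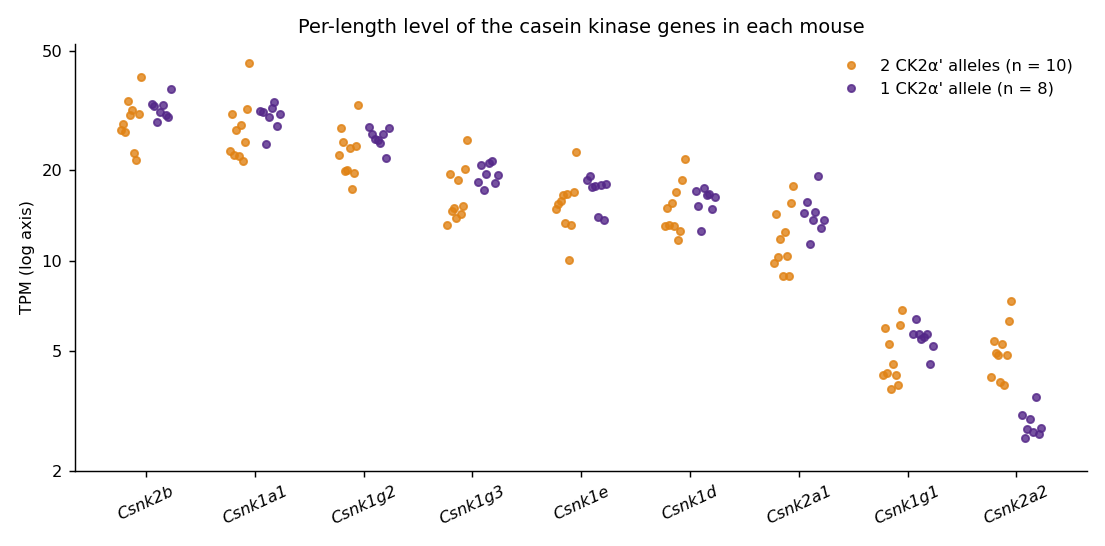
TPM of each casein kinase gene on a log axis, 1 point per mouse, with orange for the 10 mice with 2 CK2α' alleles and purple for the 8 mice with 1; genes are ordered by their mean over 18 mice. Csnk2a2 is the gene whose 2 colours part completely, with 2.56 to 3.53 TPM against 3.85 to 7.34 TPM. In CPM 0.0191% of all genes tested part by CK2α' genotype, and that share was not computed in TPM.

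Csnk2a2 (ENSMUSG00000046707; GRCm38 chr8:95446096-95490039, minus strand) fell to about 0.516 of its level in mice with 1 CK2α' allele. In CPM, counts scaled to library size with TMM factors, it was 29.4, 35, 32.7, 30.4 and 30.5 in the WT mice and 17.4, 14.7 and 18 in the CK2α'(+/-) mice. On the zQ175 background it was 33.6, 32, 37.5, 37.0 and 34.7 in the zQ175 mice and 18.3, 16.3, 19.9, 17.9 and 15.8 in the zQ175:CK2α'(+/-) mice. Every mouse with 1 allele lay below every mouse with 2, the highest of the former at 19.9 CPM and the lowest of the latter at 29.4 CPM. Over all genes tested, the mice with 1 and with 2 alleles did not overlap for 4 (0.0191%), while CK2α'(+/-) and WT mice did not overlap for 669 (3.2%) and zQ175:CK2α'(+/-) and zQ175 mice for 238 (1.14%). The log2 fold change was -0.92 (standard error 0.111, edgeR quasi-likelihood test, Benjamini-Hochberg adjusted p = 0.000897) for CK2α'(+/-) against WT and -0.99 (standard error 0.094, adjusted p = 1.61e-05) for zQ175:CK2α'(+/-) against zQ175. Averaged over both Htt genotypes it was -0.95 (95% interval -1.11 to -0.80, adjusted p = 2.80e-07), that is from -53.5% to -42.7%, and Csnk2a2 had the lowest p of all genes tested in each of these comparisons. A difference between the falls with and without zQ175 was not detected, with an interaction of -0.06 (95% interval -0.36 to 0.23, adjusted p = 0.990). In a fit of the 8 WT and CK2α'(+/-) libraries alone the first call was narrowly lost, at an adjusted p of 0.101. In bulk tissue, fewer cells that express a gene and less RNA per cell cannot be told apart.

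A second count came from inside the gene. Gm45853, an unnamed transcript model on the same strand that lies within Csnk2a2 and shares no exon base with it, was 2.83 ± 0.553 CPM (SD, n = 5) in WT and 1.72 ± 0.146 (SD, n = 3) in CK2α'(+/-) mice. With zQ175 it was 3.60 ± 0.916 (SD, n = 5) in zQ175 and 1.87 ± 0.591 (SD, n = 5) in zQ175:CK2α'(+/-) mice. Its averaged log2 fold change of -0.83 (standard error 0.200) did not pass over all genes (adjusted p = 0.598), at 23 to 82 counts per library. Counts per gene do not show which exons were lost.

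The other CK2 subunits did not change detectably when Csnk2a2 fell. Csnk2a1 (ENSMUSG00000074698; chr2:152226839-152281852, plus strand), the gene of the partner catalytic subunit, was 52.2, 68.4, 50.8, 54.9 and 50.8 CPM in the WT mice and 60.7, 66.5 and 55.2 in the CK2α'(+/-) mice. In the zQ175 mice it was 58.9, 64.1, 50.7, 68.1 and 62.0 CPM, and in the zQ175:CK2α'(+/-) mice 62.1, 65.3, 79.8, 64.3 and 57.4. The means were higher with 1 CK2α' allele on either background, but the groups overlapped. The averaged log2 fold change was 0.12 (95% interval -0.04 to 0.29, edgeR adjusted p = 0.973), so the interval reaches from -2.68% to 22.0%. Csnk2b (ENSMUSG00000024387; chr17:35116196-35122053, minus strand), the regulatory subunit gene, was 43.5 ± 4.99 CPM (SD, n = 5) in WT, 40.7 ± 0.211 (SD, n = 3) in CK2α'(+/-), 40.3 ± 2.87 (SD, n = 5) in zQ175 and 42.3 ± 3.23 (SD, n = 5) in zQ175:CK2α'(+/-) mice. Its averaged log2 fold change was -0.01 (95% interval -0.15 to 0.12, adjusted p = 0.994).

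**Figure D2:**
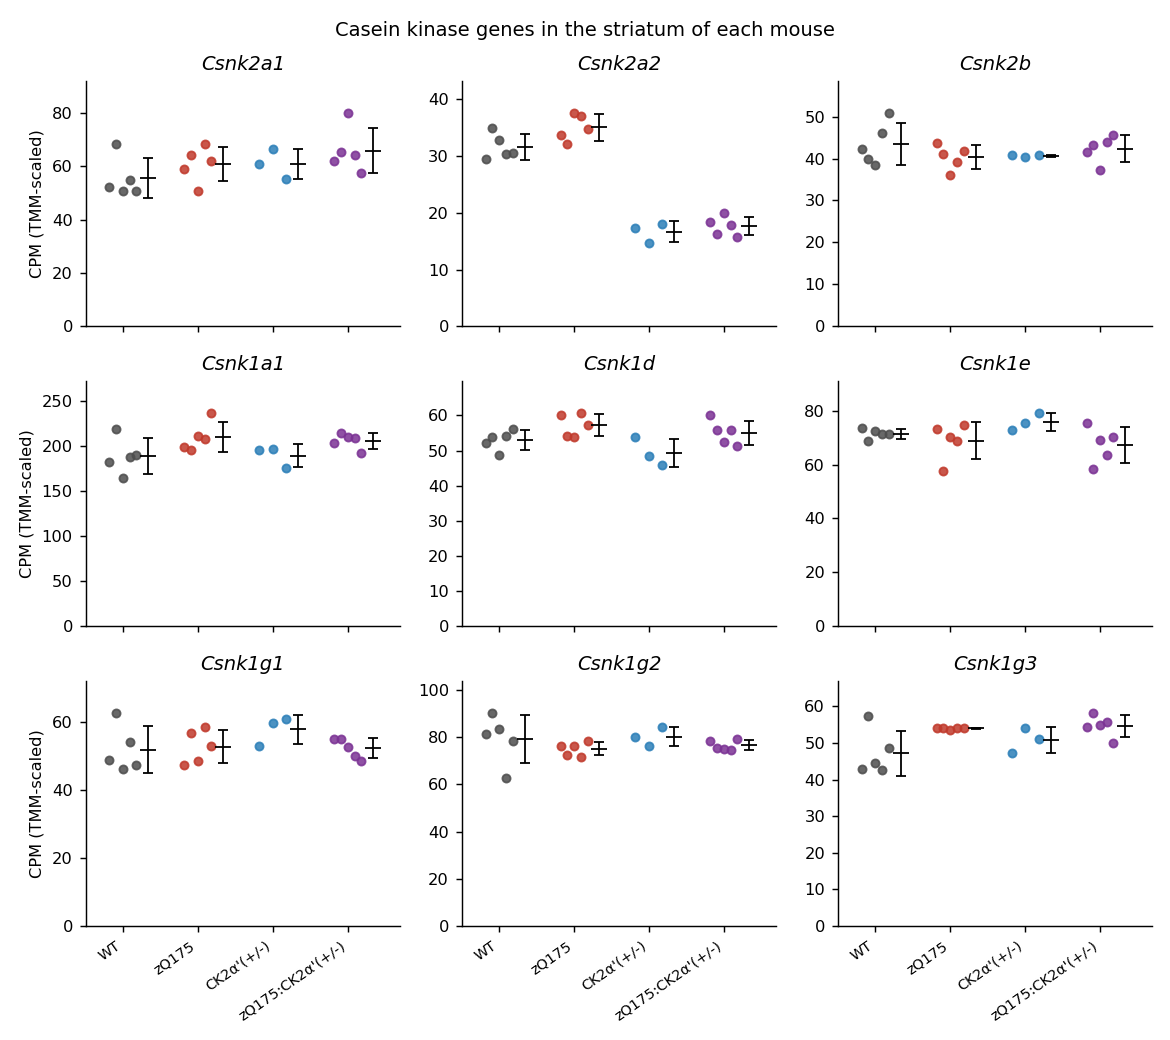
CPM of each casein kinase gene by genotype, 1 point per mouse, with the mean and SD beside each group; each panel starts at 0 and has its own scale. Of the 9 genes, Csnk2a2 alone separates by CK2α' genotype, as 0.0191% of all genes tested do, with 14.7 to 19.9 CPM in mice with 1 allele and 29.4 to 37.5 CPM in mice with 2.

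The share of CK2α' among the catalytic subunit transcripts was lower in mice with 1 allele. Csnk2a2 made up 29.8 ± 1.84% (SD, n = 5) of the summed TPM of Csnk2a1 and Csnk2a2 in WT and 30.0 ± 3.17% (SD, n = 5) in zQ175 mice, against 17 ± 2.75% (SD, n = 3) in CK2α'(+/-) and 16.6 ± 1.01% (SD, n = 5) in zQ175:CK2α'(+/-) mice. Mice with 2 alleles lay between 27.0% and 35.4%, and those with 1 allele between 14.0% and 19.5%. Taken as a share of reads without length, the means were 36.4%, 36.6%, 21.6% and 21.2% in the same order. The summed TPM of the pair was 17.1 ± 4.01 (SD, n = 10) in mice with 2 alleles and 17.3 ± 2.5 (SD, n = 8) in mice with 1. By group it was 15.7 ± 2.68 (SD, n = 5) in WT and 16.6 ± 2.19 (SD, n = 3) in CK2α'(+/-) mice. With zQ175 it was 18.5 ± 4.9 (SD, n = 5) in zQ175 and 17.7 ± 2.83 (SD, n = 5) in zQ175:CK2α'(+/-) mice. TPM carries no TMM factors. The summed TPM of the CK1 genes was 104 ± 22.0 (SD, n = 10) with 2 alleles and 114 ± 7.68 (SD, n = 8) with 1. A change in the total of the pair was not tested. Csnk2b per unit of that sum was 1.76 ± 0.297 (SD, n = 10) and 1.89 ± 0.259 (SD, n = 8), with wide overlap. The size of these shares and sums depends on the level of Csnk2a1, which Gm10031 leaves uncertain. These are transcript levels, and neither protein nor kinase activity was measured in these libraries.

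**Figure D3:**
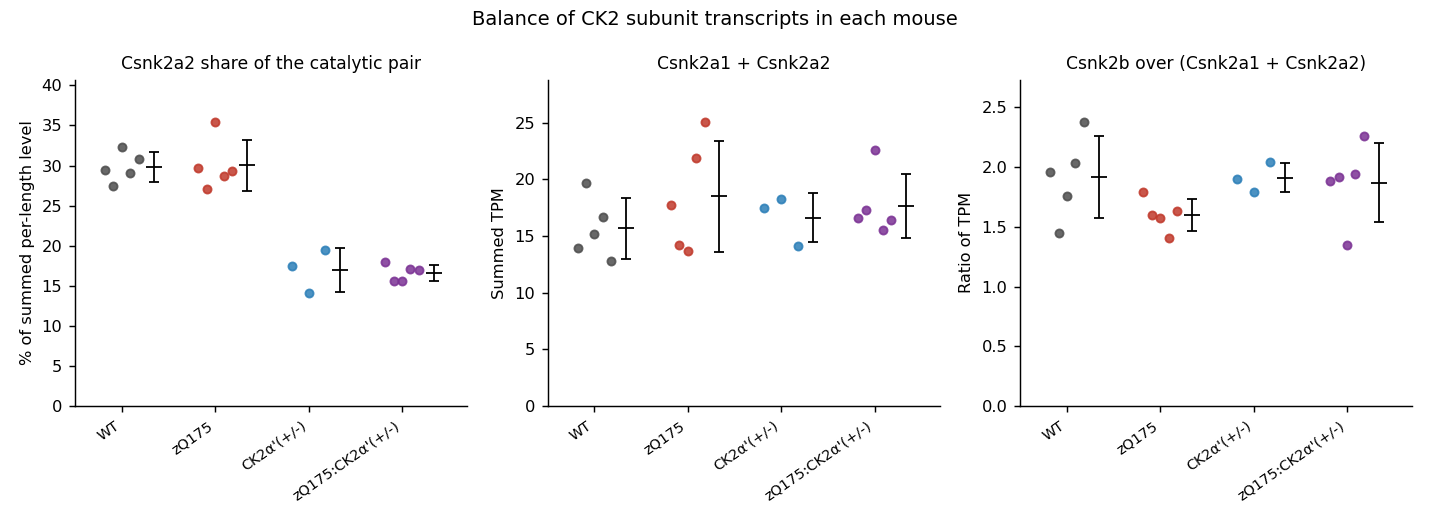
Left, share of Csnk2a2 in the summed TPM of the catalytic genes Csnk2a1 and Csnk2a2 in each mouse; middle, that sum; right, the ratio of Csnk2b TPM to it, with mean and SD per group. The share parts by CK2α' genotype, at 27.0% or more with 2 alleles and 19.5% or less with 1, while the other measures overlap.

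None of the 6 CK1 genes was called with the loss of the CK2α' allele. In the averaged comparison their log2 fold changes ran from -0.08 for Csnk1d to 0.07 for Csnk1g1, and the widest interval, that of Csnk1g1, reached from -4.82% to 16.0%. Csnk2a2 was the only one of the 9 genes called at an adjusted p under 0.1 in each allele-loss comparison, by edgeR and by DESeq2, and the only one with an unadjusted p under 0.05. Over all genes 4.48% had such a p for CK2α'(+/-) against WT, 6.27% for zQ175:CK2α'(+/-) against zQ175 and 5.31% in the averaged comparison. For scale at the adjusted threshold, 3 of the 20914 genes tested (0.0143%) were called for CK2α'(+/-) against WT, 3 (0.0143%) for zQ175:CK2α'(+/-) against zQ175, and 7 (0.0335%) in the averaged comparison. DESeq2 called 11 (0.0293%), 39 (0.145%) and 24 (0.0916%) of the genes to which it gave an adjusted p. These comparisons share mice, since the averaged one is the mean of the other two. No kinase gene was called for the interaction by either tool, and 0 had an unadjusted p under 0.05 (5.39% of all genes), where edgeR called 1 gene overall (0.00478%) and DESeq2 19 (0.103%).

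The second question the design puts is whether these genes differ with the zQ175 allele, and none was called. For zQ175 against WT, 230 of 20914 genes (1.1%) were called and 0 of the 9, while for zQ175:CK2α'(+/-) against CK2α'(+/-) 124 (0.593%) were called and again 0 of the 9. At an unadjusted p under 0.05 there were 1 and 0 of the 9, against 13.9% and 9.19% of all genes. Averaged over CK2α' genotype, 1024 genes (4.9%) were called and 0 of the 9, while 3 of the 9 had an unadjusted p under 0.05, against 16.2% of all genes. DESeq2 also called 0 of the 9 in these 3 comparisons, in which it called 855 genes (5.26%), 322 (1.47%) and 1513 (8.92%). The zQ175 and WT mice also enter the allele-loss comparisons, so the 2 sets of values are not independent.

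Csnk2a2 itself was 31.6 ± 2.26 CPM (SD, n = 5) in WT and 35 ± 2.29 (SD, n = 5) in zQ175 mice, and the zQ175 allele thus went with a log2 fold change of 0.15 (95% interval -0.04 to 0.34, edgeR adjusted p = 0.505). With 1 allele present it was 16.7 ± 1.78 CPM (SD, n = 3) without and 17.6 ± 1.64 (SD, n = 5) with zQ175, a log2 fold change of 0.08 (95% interval -0.14 to 0.31, adjusted p = 0.892). Averaged, the log2 fold change was 0.11 (95% interval -0.03 to 0.26, adjusted p = 0.460). Csnk2a1 was at 0.12 averaged (95% interval -0.04 to 0.29, adjusted p = 0.476), and Csnk2b was at -0.03 (95% interval -0.16 to 0.11, adjusted p = 0.901).

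**Figure D4:**
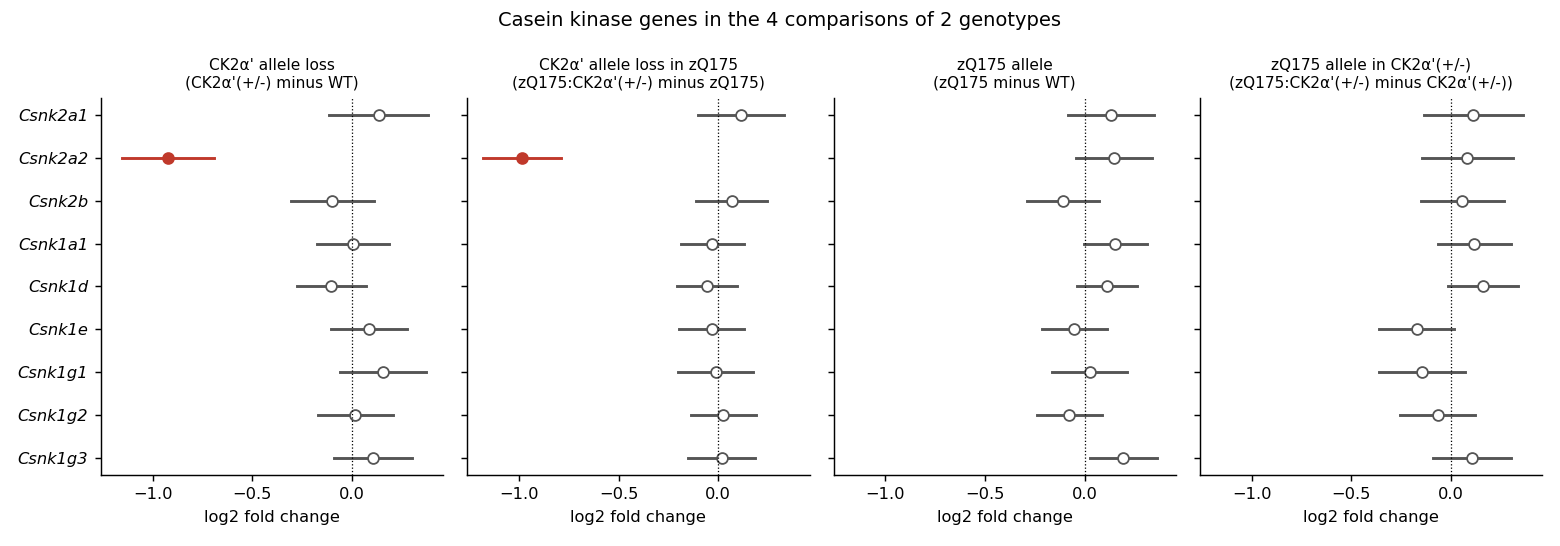
Log2 fold change of each casein kinase gene in the 4 comparisons of 2 genotypes, with 95% intervals from edgeR; filled red points passed an adjusted p of 0.1 over all genes tested and open points did not. Csnk2a2 is filled in both panels of CK2α' allele loss, at -0.92 and -0.99, and every other point is open.

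Among the CK1 genes, 3 leaned upwards with zQ175 without passing the test over all genes. Csnk1g3 (GRCm38 chr18:53862122-53955548, plus strand), which encodes a membrane-anchored CK1γ, was 42.8, 57.2, 44.4, 42.7 and 48.7 CPM in the WT mice and 54.0, 54.1, 53.5, 54.1 and 54.0 in the zQ175 mice. The zQ175 mice lay together, between 53.5 and 54.1 CPM, and above 4 of the 5 WT mice. Csnk1g3 had 47.2, 54.1 and 51.1 CPM in the CK2α'(+/-) mice and 54.5, 58.3, 54.9, 55.6 and 49.9 in the zQ175:CK2α'(+/-) mice. Its log2 fold change was 0.19 (95% interval 0.03 to 0.36, edgeR adjusted p = 0.292) for zQ175 against WT and 0.15 (standard error 0.062, adjusted p = 0.225) averaged. The call depended on a single library. Without WT replicate 2, which held the highest Csnk1g3 of its group, the log2 fold change of Csnk1g3 was 0.26 for zQ175 against WT and 0.17 averaged, and it then passed the threshold in both. In that fit 587 genes (2.82%) were called for zQ175 against WT and 1161 (5.57%) averaged.

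Csnk1a1 (chr18:61555274-61590061, plus strand), the gene of the Wnt-pathway kinase CK1α, was 188 ± 19.6 CPM (SD, n = 5) in WT and 210 ± 16.2 (SD, n = 5) in zQ175 mice, and 189 ± 12.3 (SD, n = 3) in CK2α'(+/-) and 205 ± 8.56 (SD, n = 5) in zQ175:CK2α'(+/-) mice. Averaged, the log2 fold change was 0.14 (95% interval 0.01 to 0.26, edgeR adjusted p = 0.244). Csnk1d (chr11:120958990-120991330, minus strand), the gene of the clock kinase CK1δ, was 53.0 ± 2.78 CPM (SD, n = 5) in WT, 57.3 ± 3.23 (SD, n = 5) in zQ175, 49.3 ± 4.05 (SD, n = 3) in CK2α'(+/-) and 55.1 ± 3.42 (SD, n = 5) in zQ175:CK2α'(+/-) mice, also 0.14 averaged (95% interval 0.02 to 0.25, adjusted p = 0.217). Its close relative Csnk1e (chr15:79417856-79455566, minus strand) had the opposite sign, with 71.4 ± 1.82 (SD, n = 5), 68.9 ± 6.77 (SD, n = 5), 75.9 ± 3.23 (SD, n = 3) and 67.3 ± 6.58 CPM (SD, n = 5) in the same order and -0.11 averaged (95% interval -0.24 to 0.01, adjusted p = 0.379). Neither of the clock kinase genes passed the test, and the difference between them was not tested.

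Averaged over CK2α' genotype, the remaining CK1γ genes lay close to even. Csnk1g1 (chr9:65908924-66045015, plus strand) was 46.1 to 62.7 CPM in the WT mice, 47.2 to 58.6 in the zQ175, 52.9 to 60.9 in the CK2α'(+/-) and 48.4 to 55.1 in the zQ175:CK2α'(+/-) mice, with -0.06 averaged for zQ175 (95% interval -0.20 to 0.08, edgeR adjusted p = 0.731). Csnk1g2 (chr10:80622838-80640749, plus strand) was 62.8 to 90.4, 71.8 to 78.5, 76.4 to 84.2 and 74.6 to 79.4 CPM in the same order, with -0.07 averaged (95% interval -0.20 to 0.05, adjusted p = 0.609). For Csnk1g1 the average joined 0.02 for zQ175 against WT and -0.14 for zQ175:CK2α'(+/-) against CK2α'(+/-) (95% interval -0.36 to 0.07). Its interaction was -0.17 (95% interval -0.46 to 0.12, edgeR adjusted p = 0.951). Across the 9 genes the median size of the averaged zQ175 log2 fold change was 0.11, against 0.15 over all genes tested, with a median standard error of 0.062 against 0.161.

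The whole group was thus measured with more precision than most genes. Each library held 13612381 to 22702547 counts, of which the 9 genes took 0.0585% to 0.0725%, and the counting error of the lowest count ranged from 2.04% for Csnk1a1 to 6.64% for Csnk2a2. The biological coefficient of variation that edgeR fitted was 9.01% for Csnk1d to 12.2% for Csnk2a1. After the mean of each genotype was subtracted, the correlation of log2 CPM over the 18 mice ranged from -0.60, between Csnk2a2 and Csnk2b, to 0.67, between Csnk2a1 and Csnk1g1. WT replicate 2 had the highest value of its group for 6 of the 9 genes, Csnk2a2 included. At the other end, zQ175:CK2α'(+/-) replicate 5 had the lowest value of its group for 6 of the 9, also with Csnk2a2 among them.

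The libraries were checked against cell type markers. All 8 markers of striatal projection neurons, among them Drd1, Drd2 and Adora2a, were detected in every library, and their summed level was 2217 to 4794 CPM in WT and 3382 to 4978 in CK2α'(+/-) mice, against 1099 to 2317 in zQ175 and 1917 to 2783 in zQ175:CK2α'(+/-) mice. The 5 oligodendrocyte markers summed to 5065 to 7088 CPM in WT and 5322 to 6695 in CK2α'(+/-) mice, against 3281 to 4992 in zQ175 and 3748 to 5099 in zQ175:CK2α'(+/-) mice. The 6 cortical neuron markers summed to 59.4 to 320 CPM in zQ175 mice, above every WT mouse (23.1 to 55.4 CPM) and every zQ175:CK2α'(+/-) mouse (24.4 to 54.4 CPM), with 23.2 to 61.1 CPM in CK2α'(+/-) mice and the highest value in zQ175 replicate 5. The 5 microglia markers summed to 134 to 159 CPM in WT and 105 to 139 in zQ175 mice, of which 4 lay below every WT mouse, and to 120 to 146 in CK2α'(+/-) and 133 to 147 in zQ175:CK2α'(+/-) mice. The medians of these 4 lists differed between zQ175 and WT mice, as did those of the lists given below. The part of the marker lists in the values of the kinases and their partners was not tested. The 5 astrocyte markers summed to 2559 to 3912 CPM in WT and 2591 to 3120 in zQ175 mice, but to 3342 to 3691 in CK2α'(+/-) against 2783 to 3042 in zQ175:CK2α'(+/-) mice, which did not overlap. Between CK2α'(+/-) and zQ175:CK2α'(+/-) mice, 1745 (8.34%) of all genes tested did not overlap. The 4 endothelial markers summed to 71.1 to 99.9 CPM in WT, 83.7 to 111 in zQ175, 98.0 to 134 in CK2α'(+/-) and 77.4 to 105 in zQ175:CK2α'(+/-) mice. Single libraries also stood out: 4 thalamic markers reached 863 CPM in zQ175 replicate 1, and 4 choroid plexus markers stood at 953 to 3039 CPM in WT replicates 1 and 3, CK2α'(+/-) replicate 1 and zQ175:CK2α'(+/-) replicate 2 and at most 15.5 CPM in the other 14. With those 4 left out, Csnk2a2 was called in both allele-loss comparisons, at -0.97 and -0.96 on the log2 scale, and with zQ175 replicates 1 and 5 left out at -0.92 and -1.01.

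Known partners, substrates and relatives of the kinases were taken as 4 lists. They were chosen with earlier results of these data known, so counts within them are a description only. With the loss of the CK2α' allele, averaged, 0 of 26 CK2 partners and substrates, 0 of 23 tested CK1 partners and substrates, 0 of 5 relatives of the CK1 group and 0 of 3 FAM20 kinases of the secretory pathway were called by edgeR. At an unadjusted p under 0.05 there were 3, 1, 0 and 0, against 5.31% of all genes. In the CK2 list 2 of 26 had such a p for CK2α'(+/-) against WT, with 14 of 26 lower, and 6 of 26 for zQ175:CK2α'(+/-) against zQ175, with 19 of 26 lower, against 4.48% and 6.27% of all genes. In the CK1 list there were 3 and 0 of 23. None of these was called, and the difference between the 2 comparisons was not tested for the list. The median log2 fold change of the CK2 list was -0.03, that of the CK1 list 0.01, and that of all genes -0.01. In the CK2 list the largest change was that of Stx1a, the gene of the presynaptic membrane protein syntaxin 1A, at -0.37 (standard error 0.116, edgeR adjusted p = 0.875). The largest elsewhere were -0.88 for Fam83f (standard error 0.757), -0.29 for Vrk2 (standard error 0.255) and 0.15 for Fam20a (standard error 0.109), none of which passed.

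With the zQ175 allele, averaged, 8 genes of these lists fell and none rose, against 582 (2.78%) of all genes that fell and 442 (2.11%) that rose. In the CK2 list it was Ppp1r1b alone, the gene of DARPP-32, a dopamine-regulated phosphatase inhibitor that CK2 phosphorylates, at 940 ± 255 CPM (SD, n = 5) in WT and 520 ± 143 (SD, n = 5) in zQ175 mice. It was 1091 ± 338 (SD, n = 3) in CK2α'(+/-) and 677 ± 112 (SD, n = 5) in zQ175:CK2α'(+/-) mice, which averaged to a log2 fold change of -0.77 (standard error 0.155, edgeR adjusted p = 0.0128). Ppp1r1b is also on the list of projection neuron markers used above. The median of the CK2 list was 0.02, against 0.01 over all genes.

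In the CK1 list 6 of 23 fell, against 2.78% of all genes. As the list was chosen with earlier results of these data known, this count is a description only. Of the genes that fell, 3 were among the 5 clock genes of the list, whose proteins are targets or partners of CK1δ and CK1ε. Per1 was 122 ± 21.2 CPM (SD, n = 5) in WT and 98.0 ± 8.23 (SD, n = 5) in zQ175 mice, and 149 ± 13.8 (SD, n = 3) in CK2α'(+/-) and 103 ± 10.6 (SD, n = 5) in zQ175:CK2α'(+/-) mice. In the same order, Per3 was 66.6 ± 14.6, 64.9 ± 7.68, 88.3 ± 7.27 and 57.9 ± 5.45 CPM. Cry2 was 113 ± 8.63, 107 ± 5.59, 128 ± 9.41 and 101 ± 4.1 CPM. All 3 genes had their highest mean in the 3 CK2α'(+/-) mice. Averaged, the log2 fold change was -0.43 for Per1 (standard error 0.078, edgeR adjusted p = 0.00633), -0.32 for Per3 (standard error 0.091, adjusted p = 0.0644) and -0.21 for Cry2 (standard error 0.052, adjusted p = 0.0361). The other clock genes did not pass, with Per2 at -0.30 (standard error 0.123, adjusted p = 0.223) and Cry1 at 0.02 (standard error 0.111, adjusted p = 0.955). All 3 were called for zQ175:CK2α'(+/-) against CK2α'(+/-), at -0.54, -0.61 and -0.35, and none for zQ175 against WT, at -0.32, -0.04 and -0.07. The test of that difference did not pass for any of them, with interactions of -0.22 for Per1, -0.57 for Per3 and -0.28 for Cry2 at adjusted p of 0.832 to 0.936. The summed markers of projection neurons, oligodendrocytes and astrocytes each did not overlap between CK2α'(+/-) and zQ175:CK2α'(+/-) mice. Of all genes tested, 1745 (8.34%) did not overlap between these genotypes. The part of the markers in the values of the clock genes was not tested. Mice were kept on a light/dark cycle and the study places its experiments in the light phase, without an hour for the tissue of each mouse. The median of the CK1 list was 0.00.

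The other genes of the CK1 list that fell were Gli3, a transcription factor of Hedgehog signalling, at -0.45 (standard error 0.114, edgeR adjusted p = 0.0392), Akap9, the gene of a centrosomal anchor of CK1 and other kinases, at -0.35 (standard error 0.103, adjusted p = 0.0716), and Fam83d, which encodes an anchor of CK1α, at -1.12 (standard error 0.329, adjusted p = 0.0745). Fam83d was rare, with 1.72 ± 0.856 CPM (SD, n = 5) in WT and 0.801 ± 0.208 (SD, n = 5) in zQ175 mice. The largest change on the list, that of Fam83b at 1.20 (standard error 0.477), did not pass (adjusted p = 0.202). Of the relatives, Vrk1, a nuclear kinase of the CK1 group, fell by 0.47 on the log2 scale (standard error 0.143, adjusted p = 0.0818), while Fam20c, the kinase that in fact phosphorylates secreted casein, was at -0.20 (standard error 0.089, adjusted p = 0.257). Gli3, Akap9, Fam83d and Vrk1 were called in the averaged comparison only. None of them was called for zQ175 against WT or for zQ175:CK2α'(+/-) against CK2α'(+/-). With the 4 libraries high in choroid plexus markers left out, Per1 remained called and the other 7 did not, in a fit that called 126 genes in all (0.591%). The log2 fold changes were then -0.79 for Ppp1r1b, -0.38 for Per1, -0.27 for Per3, -0.21 for Cry2, -0.45 for Gli3, -0.39 for Akap9, -1.34 for Fam83d and -0.37 for Vrk1, so all 8 kept their sign, and the standard errors were larger for each of them. With zQ175 replicates 1 and 5 left out, Ppp1r1b, Per1, Per3, Cry2 and Gli3 remained called, in a fit that called 742 genes in all (3.59%). Akap9 at -0.33 (edgeR adjusted p = 0.142), Fam83d at -1.09 (adjusted p = 0.148) and Vrk1 at -0.42 (adjusted p = 0.122) did not pass there.

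**Figure D5:**
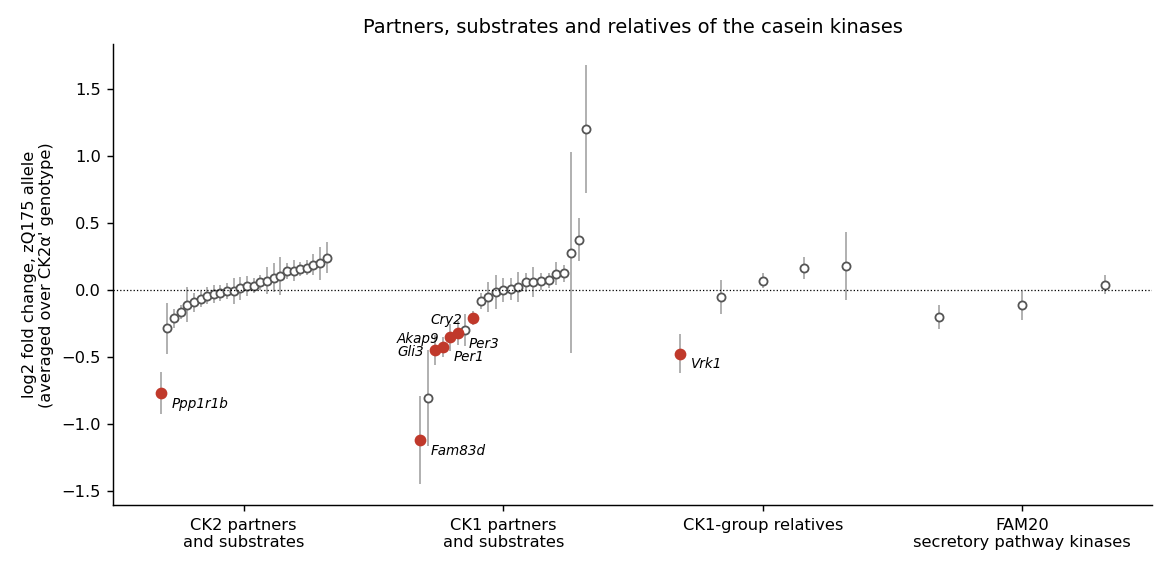
Averaged log2 fold change with the zQ175 allele (vertical axis) for each tested gene of 4 lists, ordered by value within a list, with 1 standard error; filled red points with names passed an adjusted p of 0.1 over all genes tested. All 8 filled points lie below 0, from Cry2 at -0.21 to Fam83d at -1.12.

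The genes whose level went most closely with Csnk2a2 over the 18 mice were mostly on its own chromosome. By Pearson's r of log2 CPM they were 4933406B17Rik (-0.91), Slc7a5 (-0.81), Fto (0.81), Lpcat2 (0.80) and Rbms1 (-0.79), and the first 4 lie on chromosome 8, at 0.01, 26.4, 3.78 and 2.53 megabases from Csnk2a2. 4933406B17Rik, a long intergenic noncoding RNA gene, had 0 to 11 counts in each library with 2 CK2α' alleles and 23 to 96 in those with 1. These correlations follow the CK2α' genotype and the same libraries, so they are a description only. After the mean of each genotype was subtracted, the genes most like Csnk2a2 were Olfr1392 (0.85), Tprgl (0.83), Mcrs1 (0.83), Gm6254 (0.82) and B3galt6 (0.80), none of them on chromosome 8. By the same measure the leading genes were Zfp41 (0.85) for Csnk2a1, Gm43300 (0.84) for Csnk2b, Dmxl2 (0.90) for Csnk1a1, Gm47583 (0.89) for Csnk1d, Neb (0.85) for Csnk1e, Adam23 (0.86) for Csnk1g1, Acad12 (0.88) for Csnk1g2 and C730045M19Rik (0.85) for Csnk1g3. No casein kinase gene was the closest companion of another.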

How the data were processed

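Striatal total RNA libraries of 18 mice (Takara stranded pico kit) were sequenced as paired 50-base reads. Per the methods and the submitters' processing notes, the authors used Trimmomatic for trimming and HISAT2 2.1.0 for alignment to GRCm38, discarded duplicate and low-quality alignments and deposited whole-number counts of reads per gene from Subread 1.6.2, with the gene lengths used here for TPM. Gene symbols came from a table matched by gene ID (55154 of 55421 genes). The 18 libraries were fitted in 1 model of 4 group means with edgeR 4.0.16 (TMM, filterByExpr, quasi-likelihood test), with adjusted p over 20914 genes and a threshold of 0.1. Alternatives were DESeq2 1.42.0 (R 4.3.3), other scaling, no filter, a threshold of 0.05, Xist as covariate, only the 2 groups compared, a replicate block and libraries left out. Scripts were tested on simulated data. No batch is labelled, and nothing labelled pairs the mice. All 9 kinase genes are reported. From the lists, called genes and the largest averaged change per list are named. As most alike, the gene of highest correlation per kinase, and for Csnk2a2 the 5 highest, are given. The members and lists were chosen with earlier results of these data known. Counting error and the number of mice limit the precision. In the main fit each p-value judges a difference against the spread between mice, estimated over all 4 genotypes together.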

Additional observations from a re-analysis of the deposited data

Results flagged for a closer look

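Of 27 groups of 5 mice checked, one per gene and genotype, 2 held a mouse far from its group, and chance alone sets off about 1 in 20 such groups. Csnk2a1 was 68.4 CPM in WT replicate 2, against at most 54.9 CPM in the other 4 WT mice. Csnk1g3 was 53.5 CPM in zQ175 replicate 3, just under the next value of 54.0 CPM in a group that spanned little.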

How the results depend on the processing

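The fall of Csnk2a2 with the loss of a CK2α' allele kept its direction under all alternatives run, with log2 fold changes of -0.98 to -0.84 for CK2α'(+/-) against WT (adjusted p 2.31e-11 to 0.101), -1.03 to -0.95 for zQ175:CK2α'(+/-) against zQ175 (adjusted p 1.60e-18 to 0.00178) and -0.98 to -0.91 averaged (adjusted p 3.09e-31 to 0.000168). Its call for CK2α'(+/-) against WT was lost where only the 2 groups were fitted, at a log2 fold change of -0.92, so that 0 kinase genes and 0 genes in all were called there. With 1 mouse left out at a time, 0 to 1 kinase genes were called for zQ175 against WT and 0 to 1 for zQ175 averaged. Csnk1g3 ranged from 0.15 to 0.26 and from 0.12 to 0.17 in these comparisons and was called without WT replicate 2 only, where 587 (2.82%) and 1161 (5.57%) of all genes were called.

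The numbers of genes called in all depended on the settings, and the cause was not tested. They are given in the order CK2α'(+/-) against WT, zQ175:CK2α'(+/-) against zQ175, zQ175 against WT, zQ175:CK2α'(+/-) against CK2α'(+/-), interaction, averaged allele loss and averaged zQ175, leaving out those within 1.5 times of the reported count. DESeq2 with default settings called 11, 39, 855, 322, 19 and 24 (not averaged zQ175), edgeR with no filter on low counts 19, 51, 451, 297, 10 and 20 (not averaged zQ175), and fits of only the 2 groups compared 0 and 461 for the zQ175 comparisons. An adjusted p under 0.05 left 51, 27, 0, 2 and 469 from the third comparison on, and Xist as covariate 75, 0 and 2 from the fourth to the sixth. Without the 4 libraries high in choroid plexus markers there were 1, 14, 0, 2 and 126 from the third on, and without zQ175 replicates 1 and 5 there were 0, 222, 0 and 3 from the third to the sixth. Both of these were chosen after seeing the data. With 1 mouse left out the 7 counts ranged from 1 to 9, 1 to 6, 0 to 587, 6 to 221, 0 to 2, 2 to 6 and 348 to 1161.

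With the replicate block the counts were 1, 1, 98, 12, 2 (averaged allele loss) and 519 (averaged zQ175). The same-numbered mice share only a number: the median correlation of their deviations was -0.04 over 24 pairs, from -0.53 to 0.39, against 0.01 over 96 pairs with different numbers. The block changed the call of none of the 9 genes, and reversed Csnk1g2 to -0.014 (CK2α'(+/-) against WT), Csnk2b to -0.0034 (zQ175:CK2α'(+/-) against CK2α'(+/-)) and Csnk2b to 0.016 (averaged allele loss).

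Other reversals touched values near 0 that were never called: the reported values among them were at most 0.083 in size, and the lowest adjusted p after reversal was 0.921. Xist as covariate gave Csnk1a1 -0.0011 (CK2α'(+/-) against WT) and Csnk1g3 -0.0073 (zQ175:CK2α'(+/-) against zQ175). Without the 4 libraries high in choroid plexus markers, Csnk1a1 was -0.095 without zQ175 and, within it, Csnk1e 0.014 and Csnk1g3 -0.0056, Csnk1g1 was -0.053 for zQ175 against WT, and the interactions were 0.046 for Csnk2a1, 0.0092 for Csnk2a2, 0.048 for Csnk1a1 and -0.026 for Csnk1g2. Without zQ175 replicates 1 and 5, Csnk1a1 was 0.0062 and Csnk1e 0.041 within zQ175, and averaged Csnk2b was 0.015 and Csnk1a1 0.0065. With 1 mouse left out, the ranges that crossed 0 were, for averaged allele loss, -0.031 to 0.019 (Csnk1a1), -0.0012 to 0.050 (Csnk1e), -0.016 to 0.048 (Csnk1g2) and -0.032 to 0.016 (Csnk2b). For allele loss within zQ175 they were -0.056 to 0.020 (Csnk1a1), -0.092 to 0.014 (Csnk1e), -0.049 to 0.033 (Csnk1g1) and -0.0059 to 0.051 (Csnk1g3), and for CK2α'(+/-) against WT -0.035 to 0.069 (Csnk1a1) and -0.057 to 0.071 (Csnk1g2). For the interaction they were -0.10 to 0.013 (Csnk1a1), -0.0024 to 0.11 (Csnk1d), -0.046 to 0.083 (Csnk1g2) and -0.11 to 0.049 (Csnk2a1), and for zQ175 -0.056 to 0.0054 (Csnk2b, averaged), -0.0041 to 0.14 (Csnk2a2, with 1 CK2α' allele) and -0.020 to 0.090 (Csnk1g1, against WT).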
